A study of Mus musculus with 12 samples.

Results

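Oxidative phosphorylation genes encode the subunits of the respiratory chain and of ATP synthase, and their expression was described by complex and by genome of origin in LK cells of 4 mouse genotypes. The members were all genes of the count table whose symbols match the name patterns of the subunits of complex I (Ndufa, Ndufb, Ndufc, Ndufs and Ndufv followed by a number), complex II (Sdha to Sdhd), complex III (Uqcr), complex IV (Cox4 to Cox8), complex V (Atp5) and the mitochondrially encoded proteins (mt-Nd, mt-Co, mt-Atp and mt-Cytb), leaving out names with -ps. The rule found 97 of 55291 genes, 84 in the nuclear and 13 in the mitochondrial genome. Ndufa4 was placed with complex IV, of which its protein is a subunit. Some subunits, such as Cyc1 of complex III, do not match the patterns and are not members.

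Complexes I to IV carry electrons from NADH and succinate to oxygen, and complexes I, III and IV pump protons across the inner mitochondrial membrane, which complex V uses to make ATP. Complex II is encoded entirely in the nucleus, whereas the other complexes combine nuclear subunits with core subunits that are transcribed and translated inside the mitochondrion. Blood stem cells are known to rely less on oxidative phosphorylation than the progenitors they give rise to.

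LK cells, which carry cKit and are depleted of mature blood lineages, were enriched with magnetic beads from the bone marrow of C57BL/6 mice at 12 months of age. One library was made from each of 12 mice, 3 per genotype: WT, Kdm6bΔ/+, Asxl1Y588XTg, and Asxl1Y588XTg Kdm6bΔ/+. The paper describes the Asxl1Y588XTg mice as preleukemic and the mice of the other genotypes as age-matched. Asxl1Y588XTg mice carry a transgene for a truncated ASXL1 protein, and in Kdm6bΔ/+ mice 1 allele of the histone demethylase gene Kdm6b was deleted by Mx1Cre, a Cre transgene switched on by interferon and induced here with pI:pC. For a transplantation assay the methods give WT donors as Mx1Cre+, but for the mice of these libraries the Cre status and pI:pC treatment of the genotypes without the deletion are not given in the sources used here.

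The libraries held 14451522 to 23482563 counted reads. Normalized counts of Kdm6b were 2145, 2375 and 1871 in WT, 1625, 1531 and 1347 in Kdm6bΔ/+, 2274, 2306 and 2190 in Asxl1Y588XTg, and 1651, 1875 and 1912 in Asxl1Y588XTg Kdm6bΔ/+. Both genotypes with the deletion lay below their counterparts without it (log2 fold change −0.51 ± 0.11 [SE], adjusted p = 0.279, and −0.30 ± 0.07, adjusted p = 0.0717). Asxl1 ranged from 2549 to 3249 in all libraries, and the transgene and the endogenous gene cannot be told apart. Kit ranged from 5772 to 7770 and Cd34 from 2048 to 2742. Of markers of lineage-positive cells, Ly6g was also present (1359 to 2774), while Cd3e was near the floor (0 to 17.1). Transcripts of the Y chromosome were found in 0 of 3 WT, 2 of 3 Kdm6bΔ/+, 1 of 3 Asxl1Y588XTg, and 3 of 3 Asxl1Y588XTg Kdm6bΔ/+ libraries, so that sex and genotype cannot be told apart between WT and Asxl1Y588XTg Kdm6bΔ/+.

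The 13 mitochondrial genes fell into a counted and an uncounted set. mt-Nd1, mt-Nd2, mt-Co1, mt-Nd4, mt-Nd5, mt-Nd6 and mt-Cytb had counts in every library. The other 6, mt-Co2, mt-Atp8, mt-Atp6, mt-Co3, mt-Nd3 and mt-Nd4l, were listed at 0 in all 12 libraries, although they encode core subunits of complexes I, IV and V. These 6 genes are neighbours, at chrM:7013-10173 of mm10 between mt-Co1 and mt-Nd4. A stretch of pseudogenes on chromosome 1 repeats the region, and most 50-base windows of the uncounted genes, the read length of the study, occur in it unchanged: 99.5% in mt-Co2 and mt-Atp6, 99.9% in mt-Co3, 98.8% in mt-Nd4l and 98% in mt-Nd3. The pair below is shown because a read from either place is the same sequence. Bases are in lower case where both agree.
mt-Co3 (chrM:8707-8756, + strand): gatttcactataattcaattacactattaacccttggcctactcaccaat
Gm28437 (chr1:24613822-24613871, − strand): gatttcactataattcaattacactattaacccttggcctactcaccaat

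In mt-Nd2, which was counted, only 8.19% of the windows occur elsewhere, in the chromosome 2 pseudogene Gm13339. The next pair is shown because it can be told apart, with the 4 differing bases in capitals.
mt-Nd2 (chrM:4726-4775, + strand): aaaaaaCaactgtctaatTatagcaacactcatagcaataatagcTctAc
Gm13339 (chr2:22590200-22590249, − strand): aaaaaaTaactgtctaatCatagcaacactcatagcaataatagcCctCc

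Among the other counted genes the share of windows found in another annotated gene was 62.2% in mt-Nd4, 51.1% in mt-Co1, 7.61% in mt-Nd5 and 0% in mt-Nd1, mt-Nd6 and mt-Cytb. mt-Atp8 was listed at 0 although none of its windows occurs in another annotated gene. Only annotated transcripts were searched. The chromosome 1 stretch between Gm10925 and Gm28661, the copies of its neighbours mt-Atp6 and mt-Co2, was not compared with mt-Atp8, so whether it has a copy there is not known. The chromosome 1 pseudogenes did not hold the missing reads, with 2 counts over all 12 libraries on Gm10925, the copy of mt-Atp6, 5 on Gm28437 and 35 on Gm28438, the copy of mt-Nd3. How reads with more than 1 alignment were counted is not given in the sources used here, and the part of these copies in the zeros was not tested. The 6 genes therefore say nothing about expression, and complex V has no mitochondrial value below.

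**Figure D1:**
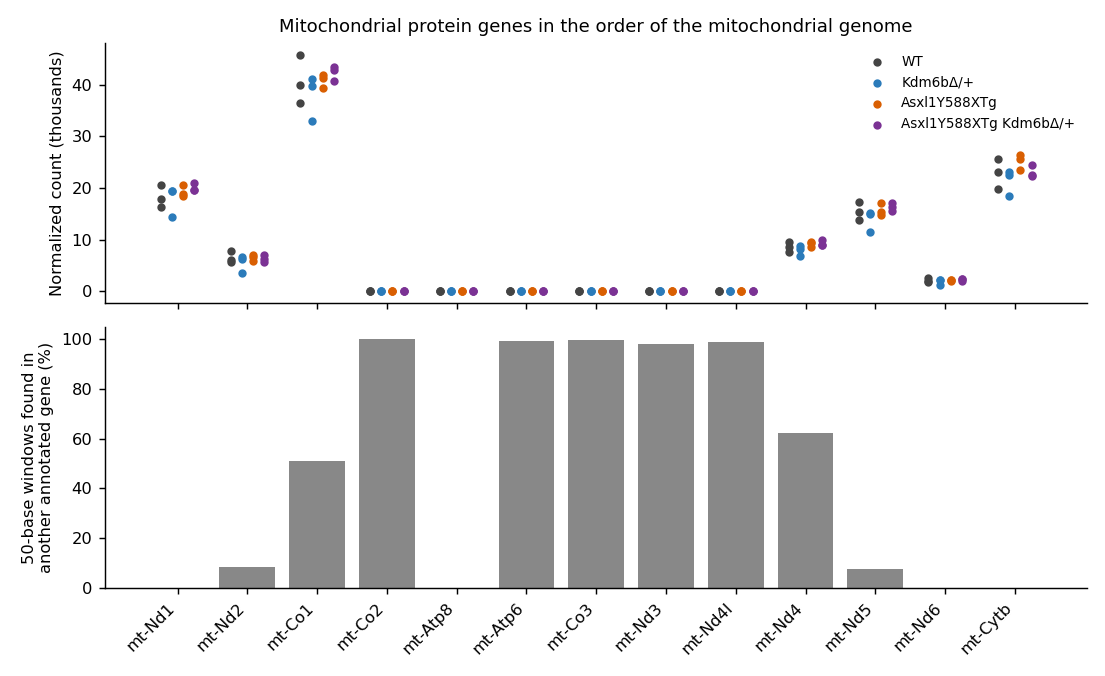
Mitochondrial protein genes from left to right in genome order. The upper panel gives the normalized count of each library, coloured by genotype, and the lower panel the percent of each gene's 50-base windows that occur in another annotated gene. The block from mt-Co2 to mt-Nd4l is at 0 in every library, and its genes other than mt-Atp8 are shared at 98% or more.

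The levels of the subunits spread over more than 3 orders of magnitude on a scale of TMM-scaled CPM per kb of exon, given here as the WT mean. The 3 highest members were mitochondrial: mt-Co1, a catalytic core subunit of complex IV, at 1496, mt-Cytb, the mitochondrial subunit of complex III, at 1133, and mt-Nd1, a proton-pumping subunit of complex I, at 1085. The highest nuclear member was Atp5b (chr10:128083273-128090391, mm10), the catalytic β subunit of ATP synthase, at 562. It was followed by Cox4i1 (chr8:120668222-120674207), the common subunit 4 of complex IV, at 349 and Atp5a1, the α subunit of ATP synthase, at 295. Among nuclear genes passing the filter on low counts, the median level was lowest for complex I, at 49.3, and was 88.5 for complex II, 103 for complex III, 69.1 for complex IV, and 84.8 for complex V. The 5 counted mitochondrial genes of complex I had a median level of 357, and even mt-Nd6, the only member transcribed from the other strand of the mitochondrial genome, stood at 228, above the highest nuclear gene of complex I, Ndufb7, at 121.

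Some genes for subunits that every assembled complex holds were low. Atp5g1 and Atp5g2, which with Atp5g3 encode the c ring of ATP synthase, had levels of 1.38 and 0.527 per kb against 249 for Atp5g3. Ndufs5 (2.94), Cox7c (3.06), Atp5l (8.5) and Atp5md (1.26) were also low. Retrocopies are common in this family, and 50-base windows were shared with other annotated genes at 68.5% in Atp5l, 36.7% in Atp5g2, 23% in Cox7c, 21.7% in Ndufs5, 11.1% in Atp5g1 and 8.25% in Atp5md. Over the 79 nuclear members tested, the 43 with no shared window had a median level of 72.6 per kb and the 8 with at least 25% shared had 18.3. Across these genes, which are not independent replicates and share libraries and annotation, Spearman's rho of level and percent shared was −0.35. Sharing did not always go with a low level, since Atp5o (28.2% shared) stood at 65.1 and Atp5pb (22.5%) at 99.0. Exon length also enters the level per kb, with 4912 bases for Atp5g1 and 724 for Atp5g3. Levels of genes with shared windows, the mitochondrial genes mt-Co1 (51.1%) and mt-Nd4 (62.2%) among them, are therefore uncertain.

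**Figure D2:**
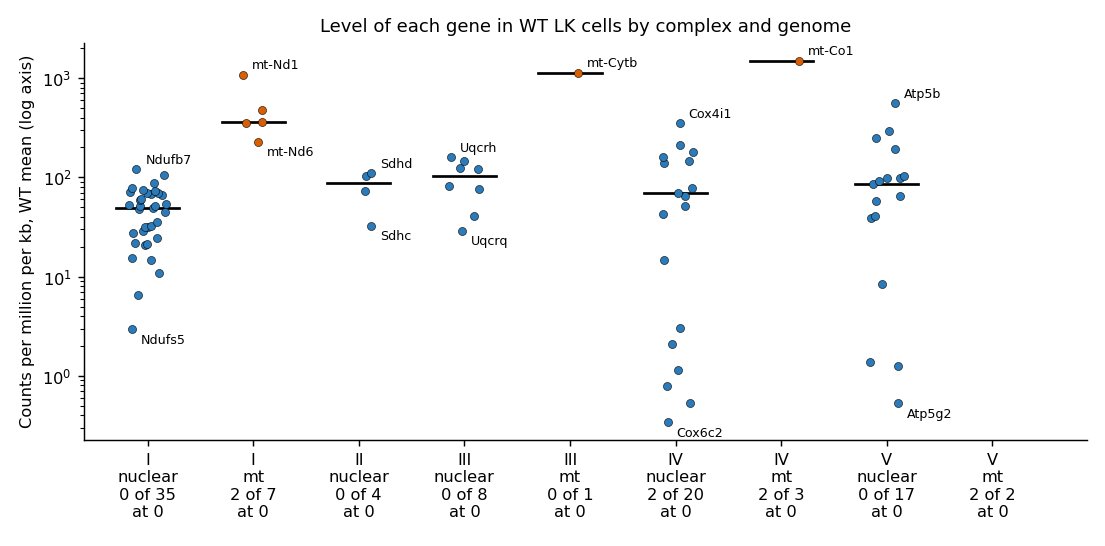
Level of each member in WT LK cells in CPM per kb of exon, on a log axis, as the mean of 3 mice, by complex and genome. Black lines are medians of the genes that passed the filter, the highest and lowest member of each set are named, and the number listed at 0 stands under each set. Counted mitochondrial genes lie between 228 and 1496, and nuclear medians between 49.3 and 103. Cox6c2, the lowest member named in complex IV, is annotated as a processed pseudogene.

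Complex IV has subunits with forms particular to muscle, lung or testis, and here the widely expressed form was the higher one in each pair. Cox6a1 was at 181 per kb and its heart and muscle form Cox6a2 at 0.784. Cox7a2 was at 147 and the muscle form Cox7a1 at 2.08, Cox6b1 at 213 and the testis form Cox6b2 at 14.6, and Cox4i1 at 349 and the lung form Cox4i2 at 0.537. Cox6b2 was thus the best expressed of these tissue forms, with normalized counts from 140 to 260 over the 12 libraries. The muscle form Cox8b had 24 reads in WT replicate 1 and 0 to 3 in every other library, while its partner Cox8a had normalized counts from 1244 to 1537. Cox8c and Cox7b2 had no count in any library, and Cox4i2, Cox6c2 and Cox8b were too low to be tested. Cox6c2 matches the name patterns but is annotated as a processed pseudogene, and 52.7% of its windows occur in Cox6c. With the 6 mitochondrial genes at 0, this left 86 members tested, 79 nuclear and 7 mitochondrial.

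As a share of all counted reads, mitochondrial members made up 0.648% ± 0.0876 (SD, n = 3) in WT, 0.591% ± 0.0892 in Kdm6bΔ/+, 0.688% ± 0.0325 in Asxl1Y588XTg, and 0.678% ± 0.0268 in Asxl1Y588XTg Kdm6bΔ/+. The values per mouse were 0.641%, 0.565% and 0.740% in WT, 0.488%, 0.647% and 0.639% in Kdm6bΔ/+, 0.680%, 0.660% and 0.723% in Asxl1Y588XTg, and 0.699%, 0.648% and 0.688% in Asxl1Y588XTg Kdm6bΔ/+. Kdm6bΔ/+ replicate 1, which was also the smallest library, was the lowest of the 12, and the 3 WT mice spanned the range of all other libraries but this one. Nuclear members made up 0.669% to 0.789% in WT, 0.748% to 0.764% in Kdm6bΔ/+, 0.728% to 0.735% in Asxl1Y588XTg, and 0.694% to 0.747% in Asxl1Y588XTg Kdm6bΔ/+, and the WT range held that of every other genotype. The mitochondrial shares rest on the 7 counted genes, lack the genes listed at 0 and are not totals of the mitochondrial genome. In bulk libraries fewer cells of a type and less RNA per cell cannot be told apart.

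The ratio of mitochondrial to nuclear counts was 0.850, 0.844 and 0.937 in WT, 0.641, 0.864 and 0.836 in Kdm6bΔ/+, 0.928, 0.897 and 0.994 in Asxl1Y588XTg, and 0.937, 0.920 and 0.991 in Asxl1Y588XTg Kdm6bΔ/+. Both genotypes with the transgene lay above all 3 Kdm6bΔ/+ mice, and their ranges overlapped with that of WT. No test was planned for these sums, and the 2 sets of members come from the same libraries.

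**Figure D3:**
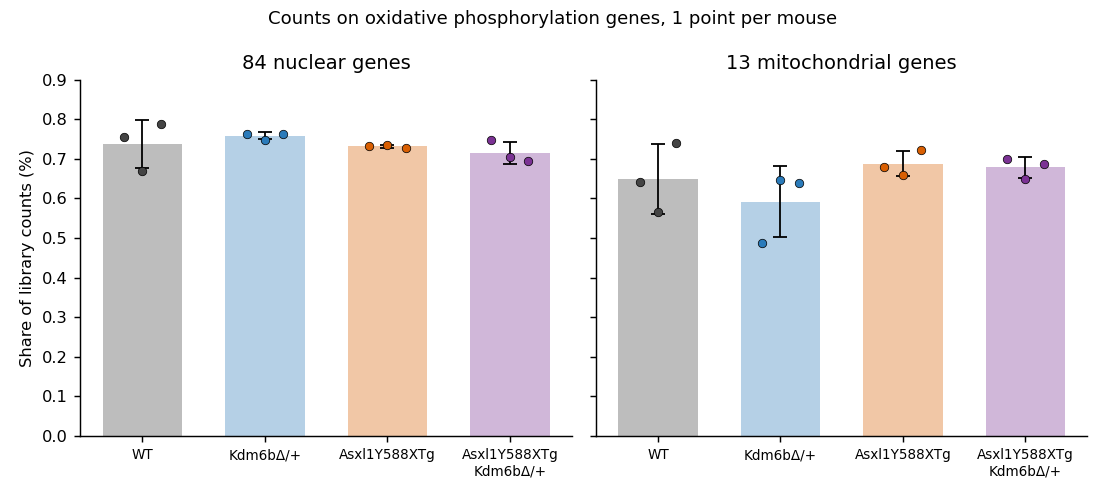
Percent of each library's counts on the nuclear members (left) and the mitochondrial members (right) in the 4 genotypes. Points are mice, bars are means of 3, and error bars are SD. Of the 13 mitochondrial members, 7 had counts and make up the shares shown. Nuclear shares run from 0.669% to 0.789% and mitochondrial shares from 0.488%, in Kdm6bΔ/+ replicate 1, to 0.740%.

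To ask whether truncated ASXL1 went with a change in respiratory chain transcripts, Asxl1Y588XTg cells were compared with WT cells. None of the 86 members passed the threshold of an adjusted p under 0.05 and a fold change above 1.5, which 1.61% of all 15825 genes passed, and none had an adjusted p under 0.05 at any fold, where 1.64% of all genes did. edgeR gave 0 members an unadjusted p under 0.05, against 7.3% of all genes higher and 2.05% lower. DESeq2 also gave 0 and called 0. The smallest adjusted p was 0.625, for Ndufb2. Over the 79 nuclear members the median log2 fold change was −0.05, with 22 higher and 57 lower, and over the 7 mitochondrial members it was 0.06, with 5 higher and 2 lower, against −0.01 over all genes tested. Both medians leaned on the WT libraries. The mitochondrial median was 0.01 without WT replicate 1, 0.00 (3 higher and 4 lower) without replicate 2 and 0.17 (7 of 7 higher) without replicate 3, and the nuclear median was −0.02, −0.09 and 0.00 (38 higher and 41 lower) in the same order. Without Asxl1Y588XTg replicate 3 they were 0.03 and −0.03.

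Compared with WT, Asxl1Y588XTg cells kept each core subunit close to its WT value. Normalized counts of Atp5b were 19290, 17050 and 20500 in WT and 17630, 18650 and 18340 in Asxl1Y588XTg, and the Asxl1Y588XTg mice lay inside the WT range (log2 fold change −0.06 ± 0.09 [SE], adjusted p = 0.912). Sdha (chr13:74322254-74350280), the flavoprotein of complex II, had 5380, 4889 and 5726 in WT and 5106, 4887 and 5178 in Asxl1Y588XTg, and again the groups overlapped (−0.08 ± 0.08, adjusted p = 0.874). All 4 complex II genes had negative log2 fold changes, from −0.12 for Sdhc to −0.08 for Sdha. The largest positive value of complex III was that of mt-Cytb, with 23170, 19700 and 25550 in WT and 26400, 23490 and 25570 in Asxl1Y588XTg (0.14 ± 0.11, adjusted p = 0.797). Among members averaging 100 or more normalized counts, the extremes of complex I were Ndufs6 (0.13 ± 0.12) and Ndufb9 (−0.22 ± 0.12), in complex IV Cox6c (0.07 ± 0.10) and Cox6b2 (−0.14 ± 0.22), in complex III Uqcrb, the lowest, at −0.18 ± 0.13, and in complex V Atp5mpl (0.10 ± 0.10) and Atp5g1 (−0.20 ± 0.25).

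This contrast left little room for large differences in single members. The 95% interval of the fold change lay within 1.5-fold in either direction for 77 of the 86 members (89.5%), against 49.6% of all genes. The 2 shares, here and in the other tests, were not matched for count level. An average of 100 or more normalized counts was reached by 79 of the 86 members and by 9893 of all 15825 genes. In the same libraries 10 of 12 HSC markers were higher in Asxl1Y588XTg cells with an adjusted p under 0.05, among them Fgd5 (log2 fold change 2.53 ± 0.27, adjusted p = 0.00266), and the summed normalized count of the HSC list was 8140 to 9923 in Asxl1Y588XTg and 4220 to 4744 in WT. Ndufb2, a small accessory subunit of complex I, was the member with the smallest p and one of 2, with Ndufa4, whose groups did not overlap, where 5.21% of all genes were lower without overlap. No member was higher without overlap, where 10.5% of all genes were. Ndufb2 had 508, 501 and 497 in WT and 425, 428 and 451 in Asxl1Y588XTg (−0.21 ± 0.10).

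To see what the Kdm6b deletion alone went with, Kdm6bΔ/+ cells were compared with WT cells. None of the 86 members passed the threshold, with or without the fold limit, and 0.0948% of all genes did. edgeR gave 3 members an unadjusted p under 0.05, all higher, against 1.3% of all genes higher and 2.19% lower. DESeq2 gave 2 and called 0. The median log2 fold change was 0.08 over the nuclear members, 60 of which were higher and 19 lower, and −0.12 over the mitochondrial members, all 7 of which were lower, against 0.00 over all genes. Complex I had 31 of 35 nuclear genes higher (median 0.11), and complex II had 2 of 4. In the same contrast the erythroid list had a median log2 fold change of −0.27 over 16 genes, 1 of which, Hba-a2 (−1.44 ± 0.21, adjusted p = 0.0202), was called lower, and its part in the member values was not tested.

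The 3 members with an unadjusted p under 0.05 all encode complex I subunits and are named after their values were seen. Ndufv3 (chr17:31520115-31531331), an accessory subunit of the NADH-binding arm, had 1262, 1320 and 1203 in WT and 1506, 1417 and 1558 in Kdm6bΔ/+, without overlap (0.24 ± 0.09, adjusted p = 0.9999). Ndufb11 had 977, 887 and 992 in WT and 1203, 1082 and 1054 in Kdm6bΔ/+ (0.22 ± 0.10), and Ndufs6 had 415, 466 and 528 against 637, 589 and 514 (0.30 ± 0.13). In all, 8 nuclear members were higher and 3 lower with no overlap between the groups, where 4.13% and 4.8% of all genes were. The 95% interval lay within 1.5-fold for 73 members (84.9%), against 51.3% of all genes. Among members averaging 100 or more normalized counts, complex I reached its highest value in Ndufb6 (0.32 ± 0.16), and the highest values of the other complexes were Uqcrq (0.19 ± 0.10), Cox6b2 (0.23 ± 0.21), Atp5e (0.15 ± 0.08) and Sdhd (0.09 ± 0.10). The lowest were Atp5g1 (−0.50 ± 0.25), mt-Nd2 (−0.24 ± 0.26), Cox7a2l (−0.11 ± 0.09), mt-Cytb (−0.10 ± 0.11) and Sdhc (−0.09 ± 0.09). Some members with fewer counts went further, with Cox7c at 0.29 ± 0.30, Atp5g2 at −0.70 ± 0.69, Cox6a2 at −1.25 ± 1.04 and Cox7a1, whose groups did not overlap, at −1.01 ± 0.60. None of these passed the adjusted threshold.

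The lower mitochondrial values in Kdm6bΔ/+ came mostly with 1 mouse. mt-Nd1 had 17900, 16290 and 20630 in WT and 14350, 19400 and 19500 in Kdm6bΔ/+, and replicate 1 was the lowest of all 12 libraries. mt-Nd2 had 6084, 5706 and 7797 in WT and 3593, 6261 and 6710 in Kdm6bΔ/+, and mt-Co1 had 39930, 36350 and 45800 against 32890, 41010 and 39730. In mt-Nd2 and mt-Co1, too, Kdm6bΔ/+ replicate 1 was the lowest library and the other 2 mice lay inside the WT range. Without this library the mitochondrial median moved from −0.12 to −0.01, while the nuclear median was 0.07 with 61 of 79 members higher. The nuclear median in turn leaned on WT replicate 2, the WT library with the lowest share, without which it was 0.02 with 47 of 79 higher.

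The deletion was next compared on the transgenic background, Asxl1Y588XTg Kdm6bΔ/+ against Asxl1Y588XTg. None of the 86 members passed the threshold, with or without the fold limit, and 1.74% of all genes passed it, or 2.09% without that limit. edgeR gave 0 members an unadjusted p under 0.05, against 5.64% of all genes higher and 9.81% lower, DESeq2 also gave 0 and called 0, and the smallest adjusted p was 0.364, for Cox8a. The median log2 fold change was 0.01 over the nuclear members, 46 higher and 33 lower, and 0.04 over the mitochondrial members, 5 higher and 2 lower, against 0.00 over all genes. The nuclear median was −0.01 without Asxl1Y588XTg replicate 3 and −0.02 when Y-linked transcripts were a term of the model.

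The median SE of the members was the smallest of the 6 tests here, at 0.08. Uqcrc1 (chr9:108936633-108949623), a core subunit of complex III, had 4156, 4344 and 4313 in Asxl1Y588XTg and 4401, 4484 and 4228 in Asxl1Y588XTg Kdm6bΔ/+, with overlap (0.05 ± 0.06, adjusted p = 0.768). Cox4i1 had 4552, 4677 and 4389 against 4587, 4613 and 4357 (0.01 ± 0.06, adjusted p = 0.964). mt-Nd4, a proton-pumping subunit of complex I, had 9356, 8662 and 9470 against 8870, 8949 and 9846 (0.03 ± 0.08, adjusted p = 0.915). In each of these genes the 2 genotypes overlapped. Cox6b2 had 163, 218 and 140 in Asxl1Y588XTg and 249, 179 and 240 in Asxl1Y588XTg Kdm6bΔ/+ (0.38 ± 0.19, adjusted p = 0.373), the largest value among members averaging 100 or more normalized counts. The lowest was Ndufa12 (−0.15 ± 0.10), and the other extremes by complex were Ndufa11 (0.14 ± 0.10), Sdhd (0.04 ± 0.08), Sdhc (−0.09 ± 0.07), Uqcr10 (−0.12 ± 0.08), Cox5b (−0.11 ± 0.08), Atp5h (0.18 ± 0.11) and Atp5k (−0.08 ± 0.08). The 95% interval lay within 1.5-fold for 78 members (90.7%), against 55% of all genes. Without overlap, 1 member was higher and 2 were lower, where 7.11% and 14.1% of all genes were. In these libraries 6 of 12 HSC markers were lower with an adjusted p under 0.05.

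To ask how the transgene compared on the background of the deletion, Asxl1Y588XTg Kdm6bΔ/+ was compared with Kdm6bΔ/+. None of the 86 members passed the threshold, with or without the fold limit, and 0.0948% of all genes passed it, or 0.101% without that limit. DESeq2 called 0. This contrast nevertheless had the most members with an unadjusted p under 0.05, 13 lower and 3 higher by edgeR and 12 in all by DESeq2, where 5.67% of all genes were lower and 6.54% higher at that level. The nuclear and mitochondrial members lay on opposite sides, with 72 of 79 nuclear members lower (median log2 fold change −0.12) and 7 of 7 mitochondrial members higher (median 0.20), against 0.00 over all genes. All 35 nuclear genes of complex I, all 4 of complex II and all 8 of complex III had negative values, and so did 11 of 15 in complex IV and 14 of 17 in complex V. The genes were read from the same 6 libraries and are not independent replicates, so these counts are a description.

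Uqcr10 (chr11:4701973-4704342), a small subunit of complex III, had the smallest p. It had 1216, 1007 and 1032 in Kdm6bΔ/+ and 850, 920 and 810 in Asxl1Y588XTg Kdm6bΔ/+, without overlap (−0.33 ± 0.09, adjusted p = 0.200). Ndufa4 (chr6:11900292-11907497), of complex IV, had 1930, 1803 and 1909 against 1605, 1599 and 1574 (−0.24 ± 0.07, adjusted p = 0.227), and the groups again lay apart. Ndufa12 of complex I had 544, 467 and 424 against 378, 383 and 381 (−0.33 ± 0.11, adjusted p = 0.287), a group of nearly equal values below a spread one. Atp5k of complex V had 613, 691 and 673 against 554, 591 and 537 (−0.23 ± 0.09, adjusted p = 0.338). Of the nuclear members 29 were lower and 1, Cox6a2, was higher without overlap, where 9.57% and 9.32% of all genes were. Cox6a2 is a low gene, at 0 to 9.36 in Kdm6bΔ/+ and 10 to 16.5 in Asxl1Y588XTg Kdm6bΔ/+.

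The core nuclear subunits had values on both sides of the nuclear median of −0.12. Log2 fold changes were −0.05 ± 0.08 for Ndufs1, −0.08 ± 0.07 for Ndufv1, −0.05 ± 0.07 for Sdha, −0.09 ± 0.07 for Sdhb, −0.13 ± 0.07 for Uqcrc1, −0.13 ± 0.10 for Uqcrfs1, −0.07 ± 0.07 for Cox4i1, −0.11 ± 0.09 for Cox5a and −0.12 ± 0.07 for Atp5b. The 95% interval of each of these 9 genes held 0, while Sdhb, Uqcrc1, Cox4i1 and Atp5b were lower without overlap between the groups. Over all members the interval lay within 1.5-fold for 76 (88.4%), against 56% of all genes. The summed normalized count of the HSC markers was 3853 to 4320 in Kdm6bΔ/+ and 4716 to 5720 in Asxl1Y588XTg Kdm6bΔ/+, that of the megakaryocyte markers was 2738 to 3399 and 4526 to 6313, and their part in the member values was not tested.

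Among the mitochondrial genes mt-Nd4 and mt-Nd5 had an unadjusted p under 0.05. mt-Nd4 had 6840, 8747 and 8232 in Kdm6bΔ/+ and 8870, 8949 and 9846 in Asxl1Y588XTg Kdm6bΔ/+ (0.22 ± 0.09, adjusted p = 0.369), and mt-Nd5 had 11430, 14970 and 15110 against 17050, 15480 and 16360 (0.24 ± 0.10, adjusted p = 0.371). The groups did not overlap in these genes and in mt-Nd1, and Kdm6bΔ/+ replicate 1 was the lowest library in each. The highest value of complex I was that of mt-Nd6 (0.26 ± 0.24). Without that library the mitochondrial median moved from 0.20 to 0.05, with 6 of 7 genes higher, and the nuclear median from −0.12 to −0.09, with 70 of 79 lower.

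**Figure D4:**
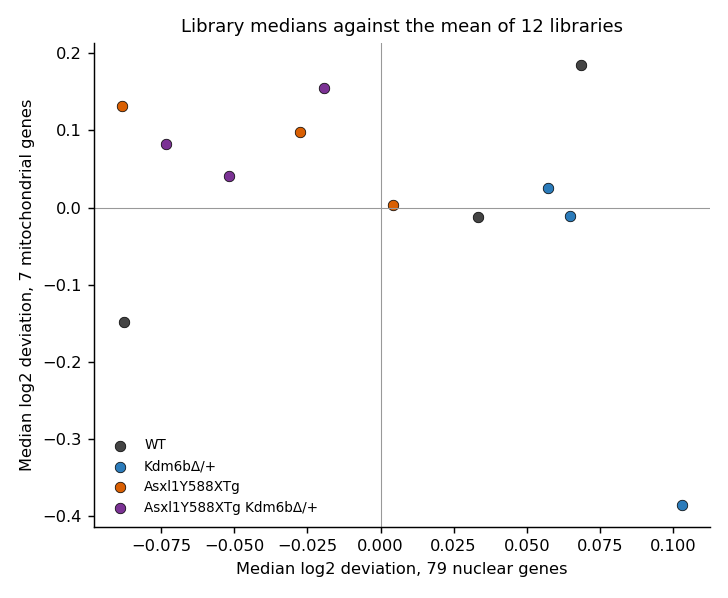
Median over the 79 nuclear members (horizontal axis) and over the 7 mitochondrial members (vertical axis) of the log2 deviation from each gene's mean over the 12 libraries. Each point is a mouse, coloured by genotype. The 3 Kdm6bΔ/+ mice lie at 0.06 to 0.10 on the nuclear axis, all 3 Asxl1Y588XTg Kdm6bΔ/+ mice lie from −0.07 to −0.02, and Kdm6bΔ/+ replicate 1 stands apart at −0.38 on the mitochondrial axis.

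Finally Asxl1Y588XTg Kdm6bΔ/+ was compared with WT. None of the 86 members passed the threshold, with or without the fold limit, against 0.215% of all genes, or 0.227% without that limit, and DESeq2 called 0. Sdhc (chr1:171127165-171150603), a membrane anchor of complex II, was the only member with an unadjusted p under 0.05 by edgeR, where 3.73% of all genes were higher and 3.06% lower. DESeq2 also gave 1. Sdhc had 1930, 1666 and 1956 in WT and 1679, 1559 and 1502 in Asxl1Y588XTg Kdm6bΔ/+, and WT replicate 2 lay inside the other group (−0.22 ± 0.09, adjusted p = 0.709). The nuclear median was −0.04, with 29 higher and 50 lower, and the mitochondrial median 0.09, with 6 of 7 higher, against 0.00 over all genes. With a term for Y-linked transcripts, fitted on all 4 genotypes, they were −0.10 (20 higher and 59 lower) and 0.20 (7 of 7 higher). Without WT replicate 2 they were −0.09 and 0.01, and without WT replicate 3 they were 0.00 and 0.18. Leaving out 1 library at a time, the nuclear median ranged from −0.09 to 0.00 and the mitochondrial median from 0.01 to 0.18. By complex the extremes of members averaging 100 or more normalized counts were Ndufs6 (0.22 ± 0.12) and Ndufb2 (−0.24 ± 0.11), Uqcrq (0.04 ± 0.10) and Uqcrb (−0.17 ± 0.12), Cox6b2 (0.24 ± 0.19) and Ndufa4 (−0.12 ± 0.07), and Atp5h (0.11 ± 0.12) and Atp5g1 (−0.18 ± 0.22). Without overlap, 2 members were higher and 6 lower, where 6.68% and 6.87% of all genes were, and the 95% interval lay within 1.5-fold for 77 (89.5%), against 51.4%. Ndufb2 had 430, 450 and 385 in these mice and 456, 464 and 489 in Kdm6bΔ/+, so that each of the 9 libraries of the other genotypes lay below the 3 WT libraries, a comparison that shares the same WT mice 3 times.

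The mitochondrial ribosomal RNAs are not members but are transcribed from the same genome. Both had an adjusted p under 0.05 in this comparison, where sex and genotype cannot be told apart, and in none of the other tests. Their share of counts was 0.0635% to 0.0754% in Asxl1Y588XTg Kdm6bΔ/+ and 0.0294% to 0.0491% in the other 9 libraries. Compared with WT, log2 fold changes in Asxl1Y588XTg Kdm6bΔ/+ were 0.78 ± 0.12 for mt-Rnr1 (adjusted p = 0.0401) and 0.52 ± 0.08 for mt-Rnr2 (adjusted p = 0.0272), while mt-Nd1, the protein gene that follows them on the genome, was at 0.15 ± 0.10 (adjusted p = 0.819). Against Asxl1Y588XTg, mt-Rnr1 and mt-Rnr2 were at 0.92 ± 0.22 and 0.78 ± 0.18 (adjusted p = 0.139 and 0.107). Against Kdm6bΔ/+ the 2 were at 0.94 ± 0.19 and 0.73 ± 0.20 (adjusted p = 0.196 and 0.27). The methods name a kit that removes ribosomal RNA and the labels another kit, and the part of this step in the rRNA counts was not tested. In Asxl1Y588XTg Kdm6bΔ/+ against WT, 3 of 16 erythroid genes tested were lower with an adjusted p under 0.05. They were Hba-a2 (−2.20 ± 0.18), Alas2 (−1.49 ± 0.20) and Hbb-bt (−1.11 ± 0.13). The whole list had a median log2 fold change of −0.34 and values up to 0.21. Its summed normalized count was 24930 to 38620 against 23250 to 46130 in WT, and its part in the rRNA values was not tested.

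Whether the deletion had another effect with the transgene than without it was tested as an interaction over all 12 libraries. None of the 86 members passed the threshold, with or without the fold limit, against 0.0126% of all genes, edgeR gave 2 members an unadjusted p under 0.05, both lower, where 4.72% of all genes were lower and 2.15% higher, and DESeq2 gave 1 and called 0. The 2 members were Uqcr10 (interaction of −0.33 ± 0.13 on the log2 scale, adjusted p = 0.639) and, named after its value was seen, Ndufb11 (−0.25 ± 0.12, adjusted p = 0.725). The 95% interval lay within 1.5-fold for 72 members (83.7%), against 41.4% of all genes. The median was −0.06 over nuclear and 0.16 over mitochondrial members, against −0.02 over all genes. The mitochondrial median turned to −0.02 without Kdm6bΔ/+ replicate 1 and the nuclear median to 0.00 without WT replicate 2. By complex the extremes of members averaging 100 or more normalized counts were mt-Nd5 (0.22 ± 0.15) and Ndufb6 (−0.36 ± 0.19), Sdha (0.03 ± 0.11) and Sdhd (−0.06 ± 0.14), Uqcrc2 (0.03 ± 0.14) and Uqcr10, mt-Co1 (0.16 ± 0.14) and Cox5b (−0.24 ± 0.12), and Atp5g1 (0.50 ± 0.34) and Atp5k (−0.23 ± 0.13).

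**Figure D5:**
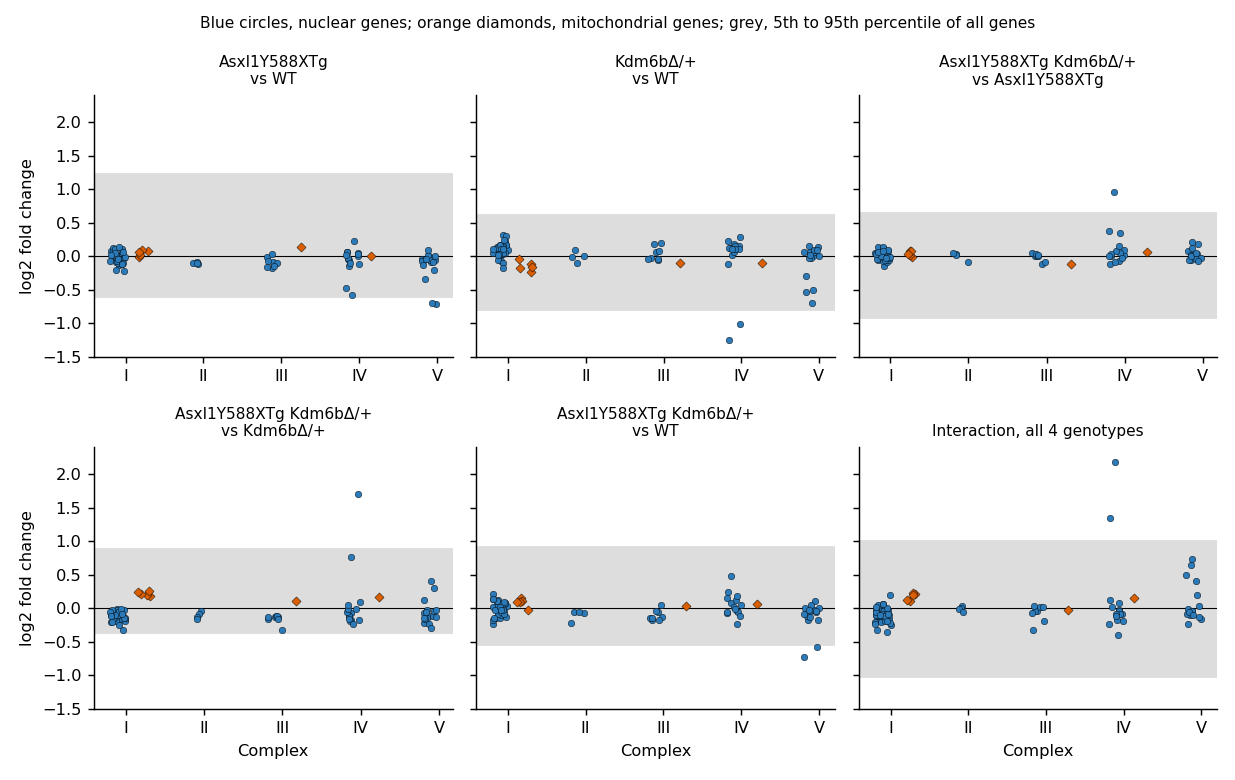
Log2 fold change of each of the 86 members tested, by complex, in the 5 pairwise comparisons and as the interaction. Blue circles are nuclear and orange diamonds mitochondrial genes, and the grey band holds the 5th to 95th percentile of all 15825 genes. Members that average 100 or more normalized counts lie between −0.50 and 0.50, and the points beyond are low genes such as Cox6a2 and Cox7a1.

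The coefficient of variation within a genotype had a median of 7.31% over the 79 nuclear members and 10.2% over the 7 mitochondrial members, against 14.4% over all genes tested. Among genes averaging 100 or more normalized counts it was 7.04% over 72 nuclear members and 9.5% over all 9893. All 7 mitochondrial members also averaged more than 100, and their median lay above the 9.5%, with values from 8.37% in mt-Co1 to 17.7% in mt-Nd2. The median SE of the log2 fold change ranged from 0.08 to 0.10 over the pairwise comparisons, where it was 0.14 to 0.19 for all genes, without matching for count level.

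Of 51 tested assembly factors of complexes I to V, 0 had an adjusted p under 0.05 in any of the 6 tests by edgeR, and the number with an unadjusted p under 0.05 was 0 in Asxl1Y588XTg and in Kdm6bΔ/+ against WT. In Asxl1Y588XTg Kdm6bΔ/+ 2 were lower against Asxl1Y588XTg, 2 against WT and 10 against Kdm6bΔ/+, where 9.81%, 3.06% and 5.67% of all genes were lower, 1 was lower in the interaction, where 4.72% were, and 0 were higher in any test. Against Kdm6bΔ/+ their medians were −0.15 for complex I, 0.05 for complex II, −0.08 for complex III, −0.12 for complex IV and −0.17 for complex V. Together with electron carriers and quinone synthesis, mitochondrial genome maintenance and expression, transcriptional regulators of oxidative phosphorylation, the tricarboxylic acid cycle and glycolysis, 143 genes were tested and 0 passed an adjusted p under 0.05 in any test. Glycolysis, the pathway that makes ATP without oxygen, had medians over 21 genes of 0.02 in Asxl1Y588XTg and 0.09 in Kdm6bΔ/+ against WT. In Asxl1Y588XTg Kdm6bΔ/+ they were −0.01 against Asxl1Y588XTg, −0.07 against Kdm6bΔ/+ and −0.04 against WT, and for the interaction −0.06. Of these genes 2 were higher at an unadjusted p under 0.05 in Asxl1Y588XTg against WT, where 7.3% of all genes were. In the last 4 tests 5, 2, 1 and 3 were lower, in that order, where 9.81%, 5.67%, 3.06% and 4.72% of all genes were. Single glycolysis genes went further than the medians, from −0.21 to 3.55 in Asxl1Y588XTg against WT. In Asxl1Y588XTg Kdm6bΔ/+ against Asxl1Y588XTg they ranged from −1.41 to 0.23.

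Promoters of 68 of the 84 nuclear members were found in RefSeq (GRCm38.p6), from 250 bases before to 50 after the start. NRF1 is a factor known to bind promoters of respiratory genes, and the letters GCATGCG from the core of its binding motif were held, on either strand, by 11 of the 68 (16.2%) and by 4.01% of 27025 genes. Stretches of 3 of these promoters, those of named members of 3 complexes, are shown with the match in capitals to show where the letters lie in the minority of members that hold them.
Atp5k (chr5:108434415-108434474, − strand): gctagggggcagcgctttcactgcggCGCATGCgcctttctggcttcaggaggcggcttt
Cox6a1 (chr5:115349086-115349145, − strand): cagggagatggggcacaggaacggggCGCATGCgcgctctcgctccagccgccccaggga
Sdhb (chr4:140961191-140961250, + strand): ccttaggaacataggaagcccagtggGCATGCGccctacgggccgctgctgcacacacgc

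Uqcrc1 and Ndufa11 were also among the 11. The letters ATGGCGG, from the motif of YY1, were held by 10 members (14.7%), Atp5b and Ndufs6 among them, and by 4.69% of all genes. The letters CCGGAAG, read by ETS factors, were held by 17 (25%) and 9.93%, and TATAAA by 8 (11.8%) and 15.7%. The 27025 genes were not matched to the members for expression or for the base content of their promoters. A match is a description of the letters and not of binding. For the members shown, log2 fold changes in Asxl1Y588XTg Kdm6bΔ/+ against Kdm6bΔ/+ were −0.12 ± 0.07 for Cox6a1, −0.09 ± 0.07 for Sdhb and −0.23 ± 0.09 for Atp5k, beside the nuclear median of −0.12.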

How the data were processed

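Total RNA of LK cells from 12 mice was sequenced as 50-base single reads. The authors trimmed the reads with Trimmomatic, aligned them to mm10 with STAR, counted reads per gene with HTSeq, and then deposited the raw counts, whole numbers without normalization. The annotation, strand and multiple-alignment settings of the counting are not given in the sources used here. Columns were matched to genotypes by the labels. Nothing in the labels pairs mice across genotypes.

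Tests used R 4.3.3 with edgeR 4.0.16. Genes kept by filterByExpr (15825) were scaled by TMM and fitted with the robust quasi-likelihood model to the 6 libraries compared, or to all 12 for the interaction, and p-values were adjusted by Benjamini-Hochberg across those genes. Members were called at an adjusted p under 0.05 and a fold above 1.5. SEs and 95% intervals derive from the F statistic and are approximate. A normalized count is the count over its library's effective size, multiplied by the mean library size. Alternatives were DESeq2 1.42.0, other scalings and filters, a term for Y-linked transcripts, the replicate block and leaving out libraries. The steps were tested on simulated data. Positions, exon lengths and shared 50-base windows come from GENCODE vM21 transcripts (mm10), in which 2 members carry another symbol, and promoters from RefSeq. Replicates differed by more than counting noise, and depth was 14451522 to 23482563 counts.

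Members and gene lists were chosen with earlier results of these data known. Named genes are the mitochondrial members, 10 core nuclear subunits, tissue isoforms of complex IV with their partners, members with an adjusted p under 0.05, and the members with the highest and lowest log2 fold change of each complex with a mean of at least 100 normalized counts. Low subunits, members whose promoters are shown and members with unadjusted p under 0.05 were named after their values were seen. Marker lists covered LK progenitors, HSCs, erythroid cells and megakaryocytes, with 2 of 10 LK progenitor genes (Gata2, Mecom) higher in Asxl1Y588XTg than in WT and lower in Asxl1Y588XTg Kdm6bΔ/+ than in Asxl1Y588XTg, 1 erythroid gene lower in Kdm6bΔ/+ (Hba-a2) and 3 lower in Asxl1Y588XTg Kdm6bΔ/+ than in WT, and 1 megakaryocyte gene higher in Asxl1Y588XTg Kdm6bΔ/+ than in Kdm6bΔ/+ (Itga2b) and than in WT (Ppbp). Lists for neutrophils, monocytes, mast cells, B cells, and T and NK cells had 0 genes with an adjusted p under 0.05 in every test. Values of 1 core subunit and of 2 lineage markers are not reported here.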

Additional observations from a re-analysis of the deposited data

How the results depend on the processing

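The count of members called was 0 in all 6 tests under every alternative run. At an adjusted p under 0.05 without the fold limit it was 0 as well, except for 1 member, Uqcr10, in Asxl1Y588XTg Kdm6bΔ/+ against Kdm6bΔ/+ without an expression filter. Over all genes the number called moved more. It was 255 in Asxl1Y588XTg against WT and 149 to 640 under another tool, fit or filter with 101 under the replicate block. It was 15 and from 6 to 53 in Kdm6bΔ/+ against WT. For Asxl1Y588XTg Kdm6bΔ/+ it was 275 and from 48 to 812 against Asxl1Y588XTg, 15 and from 2 to 211 against Kdm6bΔ/+, and 34 and from 3 to 182 against WT. For the interaction it was 2 and from 0 to 258. The replicate numbers did not pair the libraries (median r of −0.06 over 18 pairs with the same number, from −0.15 to 0.15), and with the replicate block 0 members were called in any test.

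With a term for Y-linked transcripts the nuclear median of Asxl1Y588XTg Kdm6bΔ/+ against WT was −0.10 in place of −0.04. Without Kdm6bΔ/+ replicate 1 in the fit of all 4 genotypes, chosen after seeing the data, the mitochondrial median of Asxl1Y588XTg Kdm6bΔ/+ against Kdm6bΔ/+ was 0.045. Leaving out 1 library at a time, the mitochondrial median ranged from 0.050 to 0.29 in that comparison, from −0.19 to −0.01 in Kdm6bΔ/+ against WT, and from −0.017 to 0.23 for the interaction. The nuclear median ranged from 0.022 to 0.12 in Kdm6bΔ/+ against WT, from −0.13 to −0.09 in Asxl1Y588XTg Kdm6bΔ/+ against Kdm6bΔ/+, and from −0.12 to 0.0027 for the interaction. The cause was not tested. Shares rise with a smaller denominator by construction. The shares given next are those that moved by more than their SD among the mice of a genotype. WT is not among them, so they do not rank the genotypes. Of counts on protein-coding genes, nuclear members made up 0.822% in Kdm6bΔ/+, 0.789% in Asxl1Y588XTg and 0.780% in Asxl1Y588XTg Kdm6bΔ/+, and mitochondrial members 0.741% in Asxl1Y588XTg and 0.740% in Asxl1Y588XTg Kdm6bΔ/+. Of counts on nuclear genes, nuclear members made up 0.737% in Asxl1Y588XTg. Of 3031 recomputed values of named genes, 0 were called and 169 took the other sign, 13 of them with a move of more than 1 SE. With 3 mice a genotype the 95% interval lay within 1.5-fold for 72 to 78 of the 86 members, so that larger differences were outside it for most members, while smaller ones may not have been detectable.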
